A study of Mus musculus with 20 samples.

Results

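Retinas of 6-month-old Nrl-/- mice were set against retinas of 1-month-old Nrl-/- mice, in 8 of the 20 exon arrays of a series that covered 5 ages. Each age had 4 arrays, and the mice aged 2, 4 and 10 months served for the spread and for the course over age. All 20 mice were of the C57Bl/6J strain and carried the same Nrl-/- genotype, so the younger retinas lacked the gene as well. Each array held the RNA of the pair of retinas of 1 mouse, with ribosomal RNA reduced before amplification, and the replicates were therefore separate animals. No wild-type retina was among the arrays, and what the loss of Nrl did and what normal maturation or ageing did cannot be told apart.

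Nrl is a leucine zipper transcription factor of the photoreceptor layer that directs precursors towards the rod fate, acting with Crx and upstream of Nr2e3. In its absence the precursors that would become rods take on a cone-like form rich in the short-wavelength opsin, and the retina has no true rods. These cells are served by the same partners as in a normal retina, namely bipolar and horizontal cells at their synapses, Müller glia along their length, the retinal vessels on the inner side and the pigment epithelium on the outer side. The label given to the comparison calls the older retina settled, after the series' title, which speaks of a rapid and transient loss and remodelling with cones preserved later. The comparison asks what differed in such a retina at 6 months from the same kind of retina at 1 month.

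Levels are log2 intensities per gene, summarised from the deposited probe sets, and a change is the 6-month mean minus the 1-month mean on that log2 scale. Genes were called at a Benjamini-Hochberg adjusted p under 0.05 in limma, and "rose" and "fell" are used of called genes alone. The mean correlation of an array to all other arrays of the series, of any age, was 0.985 to 0.989 at 6 months and 0.981 to 0.985 at 1 month. The genotype could not be checked against a control. The array read Nrl itself at 6.09 ± 0.13 at 6 months and 6.22 ± 0.14 at 1 month (SD, n = 4 each; change -0.13 ± 0.10 SE, limma adjusted p = 0.419), and where its probes lie relative to the deleted part is not known. The cone opsin Opn1sw was read at 13.62 to 13.77 at 6 months, against 13.65 to 13.73 at 1 month. Of the rod genes, Gnat1 was read at 6.46 to 6.56 at 6 months, against 6.27 to 6.32 at 1 month, and Nr2e3, at 5.43 to 5.60 at 6 months and 5.10 to 5.78 at 1 month, was too dim to be tested. Other genes of the rod list were read higher. Pde6a had means of 10.38 at 6 months and 10.28 at 1 month, and Gngt1 of 8.57 and 8.53. Lens markers stood lower on average at 6 months (5.67, against 6.37 at 1 month), although the arrays of both ages overlapped. The mean level of the 19 measured lens markers was 5.36 to 6.14 at 6 months and 6.02 to 6.64 at 1 month, and Cryaa, a lens crystallin, ranged widely among the older mice (7.20, 9.22, 5.75 and 6.96 at 6 months, against 9.18, 9.74, 9.06 and 8.58 at 1 month). Of the 11 lens markers tested, Cryaa and Crybb1 fell (1 of them without 6-month replicate 3), none was at 0, and Mip was 5.45 to 5.61 at 6 months against 5.60 to 6.13 at 1 month. The part of lens RNA in the results was not tested beyond a fit with the lens mean as a covariate, whose counts are given with the lists below where they moved most. The mean of the pigment epithelium markers overlapped (6.94 to 7.41 at 6 months, 7.10 to 7.33 at 1 month), and of the 3 tested red blood cell markers Ermap and Alas2 fell (1 of them without 1-month replicate 3 or 6-month replicate 4). Mal, 1 of 8 tested oligodendrocyte markers, and Perp, 1 of 4 of the cornea, rose, each lost without at least 4 of the 8 arrays in turn, and the mean level of the skeletal muscle markers was 5.28 to 5.44 at 6 months and 5.36 to 5.55 at 1 month. The mean of both Y-linked genes was 7.65 to 7.83 at 6 months and 7.93 to 8.28 at 1 month, with 4.00 to 4.28 at 2 months.

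Of 11850 genes tested, 1945 (16.4%) were called, 937 of them higher (7.91%) and 1008 lower (8.51%) at 6 months than at 1 month. Most of these changes were small, with a median size of 0.30 among called genes and 0.11 among all genes, and the median change of all genes was 0.01. A change of at least 1.5-fold was reached by 157 called genes (1.32%), 69 higher and 88 lower. The 4 older and the 4 younger arrays did not overlap for 2646 genes (22.3%), 1330 higher (11.2%) and 1316 lower (11.1%). The counts in the gene lists below stand against these shares, and a list whose share of called genes is near them shows nothing particular to it. Some genes stand in more than 1 list, such as Mt1 and Mt2 (gliosis and metallothioneins) and Thrb (cones and transcription factors). Counts of different lists are therefore not separate findings. The count of higher genes leaned on the arrays compared, being 590 without 1-month replicate 3 and 619 without 6-month replicate 3, while the count of lower genes lay between 730 and 1018 with any of the 8 arrays left out. With the lens mean as a covariate 1092 genes were called, 488 higher and 604 lower, and in the brightest probe set of each gene 954, 445 higher and 509 lower. The lens mean was itself highest on average at 1 month (6.37, against 5.67 at 6 months), so its fit also takes up part of the age difference. A call lost in that fit therefore does not tell the 2 apart. Since whole retinas were measured, fewer cells of a type and less RNA per cell cannot be told apart.

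**Figure D1:**
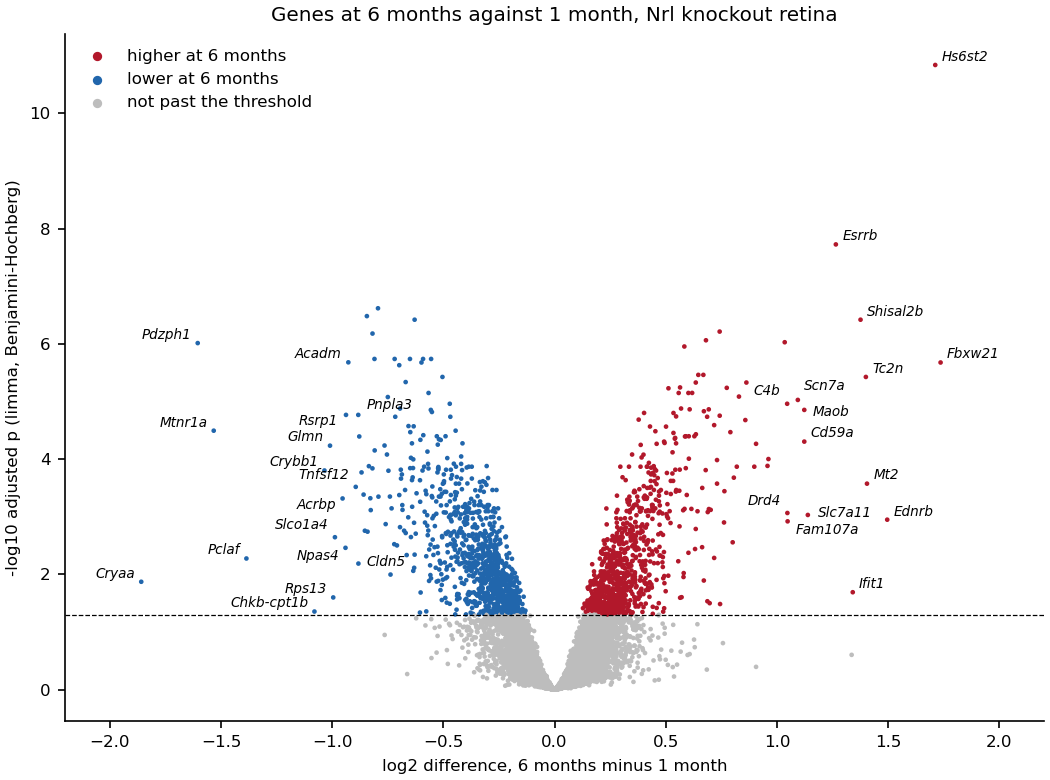
Each point is 1 of the 11850 tested genes, with its log2 difference (6 months minus 1 month) on the x axis and -log10 of its adjusted p (limma) on the y axis. Red points are the 937 higher and blue points the 1008 lower genes at 6 months, and the dashed line is the threshold of 0.05; Hs6st2 has the smallest adjusted p (1.45e-11) and Cryaa the largest fall (-1.86).

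The largest rise was that of Fbxw21, which encodes an F-box and WD-repeat protein. Its level was 8.08, 8.08, 8.20 and 8.15 at 6 months, against 6.87, 6.19, 5.91 and 6.60 at 1 month. The older mice agreed closely, the younger ones spread more widely, and the groups lay far apart, with a change of 1.74 ± 0.17 (SE; limma adjusted p = 2.11e-06), or 3.33-fold. Probe sets of Fbxw21 numbered 10, of which 9 had the sign of the gene's change. The means were 6.39, 7.19, 7.94, 8.13 and 8.03 at 1, 2, 4, 6 and 10 months. The promoter of this gene is shown because the gene had the largest rise in a tissue made up mainly of photoreceptors, whose homeodomain factor Crx binds the core TAATCC. The sequence is from RefSeq, build GRCm38.p6, chr9:109161973-109162272, minus strand, from 250 bases before to 50 after the first of 2 listed starts, written 5′ to 3′ along the gene with the core in capitals.
Fbxw21: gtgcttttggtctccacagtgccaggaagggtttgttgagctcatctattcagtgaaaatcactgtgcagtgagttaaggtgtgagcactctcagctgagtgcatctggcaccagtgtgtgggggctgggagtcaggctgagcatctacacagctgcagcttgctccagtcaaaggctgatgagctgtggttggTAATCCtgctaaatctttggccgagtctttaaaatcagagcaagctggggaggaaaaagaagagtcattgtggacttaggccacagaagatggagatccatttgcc
The core, searched on both strands as TAATCC, was found once in it, first base at position -56 from the start, and 7.06% of the 32851 promoters of the table hold it. None of the other 5 motifs searched was found in this window. A match of this kind is a description of the letters and no evidence of binding.

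Hs6st2, the enzyme that adds 6-O-sulfate to heparan sulfate chains, had the clearest difference of all genes. It was at 8.23, 8.19, 8.31 and 8.28 at 6 months, against 6.63, 6.59, 6.28 and 6.66 at 1 month. All 4 older arrays stood above all 4 younger ones by a wide margin, and the change was 1.71 ± 0.07 (SE; limma adjusted p = 1.45e-11), or 3.28-fold. Ednrb, the type B endothelin receptor that retinal glia raise under stress, measured 8.72, 8.32, 8.35 and 8.59 at 6 months, against 7.14, 6.90, 6.87 and 7.09 at 1 month. Its groups did not overlap and its change was 1.5 ± 0.28 (SE; limma adjusted p = 0.00113), with all 15 probe sets of the same sign. Mt2, a metallothionein that binds zinc and copper, reached 9.16, 9.23, 9.35 and 9.21 at 6 months, against 8.08, 7.38, 7.95 and 7.91 at 1 month, all older arrays lying well above the younger (change 1.41 ± 0.22 SE, limma adjusted p = 0.000267). Tc2n, which encodes a protein with tandem C2 domains, rose by 1.40 ± 0.14 (limma adjusted p = 3.76e-06), and Shisal2b, of the shisa-like membrane proteins, rose by 1.38 ± 0.11 (limma adjusted p = 3.81e-07). Ifit1, an interferon-induced RNA-binding protein read by 1 probe set, was at 6.74, 6.58, 6.89 and 6.63 at 6 months, against 6.43, 4.18, 5.11 and 5.74 at 1 month. The younger mice spread far more widely than the older ones, and the call was lost without 1-month replicate 2 or 3 or 6-month replicate 3 (change 1.34 ± 0.38 SE, limma adjusted p = 0.0204 with all arrays).

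Esrrb, an orphan nuclear receptor of photoreceptors known for its role in rod survival, was at 8.80, 8.77, 8.58 and 8.78 at 6 months, against 7.62, 7.44, 7.35 and 7.47 at 1 month. The groups were far apart and tight, and 14 of 15 probe sets had the same sign (change 1.27 ± 0.08 SE, limma adjusted p = 1.88e-08). Slc7a11, the cystine and glutamate exchanger that feeds glutathione synthesis, was at 6.60, 6.91, 6.84 and 6.73 at 6 months, against 5.59, 5.57, 5.78 and 5.58 at 1 month, with the older arrays all above the younger (change 1.14 ± 0.21 SE, limma adjusted p = 0.000932). Its 1-month arrays lay near or below the lower limit set for testing (5.61), so the size of the rise is uncertain. Cd59a, a membrane inhibitor of the complement attack complex, was at 8.81, 9.02, 9.23 and 9.36 at 6 months, against 8.37, 8.07, 7.56 and 7.92 at 1 month. Its 6-month arrays were all above its 1-month arrays, the nearest pair being 8.81 and 8.37 (change 1.12 ± 0.15 SE, limma adjusted p = 4.97e-05). Maob, monoamine oxidase B, rose by 1.12 in the summary of 19 probe sets (6.04 to 6.33 at 6 months, against 4.71 to 5.37 at 1 month; limma adjusted p = 1.4e-05), and by 0.23 in its brightest probe set, where it was not called (adjusted p = 0.47). All 1-month arrays of Maob lay below the same limit, so the size of its rise is uncertain too. Scn7a, an atypical sodium channel that senses extracellular sodium, had all 27 probe sets higher (8.44 to 8.54 at 6 months, against 7.19 to 7.60 at 1 month; change 1.09 ± 0.12 SE, limma adjusted p = 9.41e-06). Fam107a, a stress-related actin-binding protein, was 7.71 to 8.24 at 6 months, against 6.60 to 7.09 at 1 month (change 1.05 ± 0.20 SE, limma adjusted p = 0.0012). Drd4, the dopamine D4 receptor of photoreceptors, was at 10.27, 9.92, 9.90 and 10.07 at 6 months, against 8.94, 8.94, 9.16 and 8.94 at 1 month, and C4b, a central component of the classical complement pathway, at 9.63, 9.59, 9.86 and 9.32 at 6 months, against 8.71, 8.45, 8.51 and 8.55 at 1 month. Neither gene's groups overlapped, with changes of 1.05 ± 0.19 (SE; limma adjusted p = 0.000862) and 1.05 ± 0.12 (SE; limma adjusted p = 1.1e-05).

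**Figure D2:**
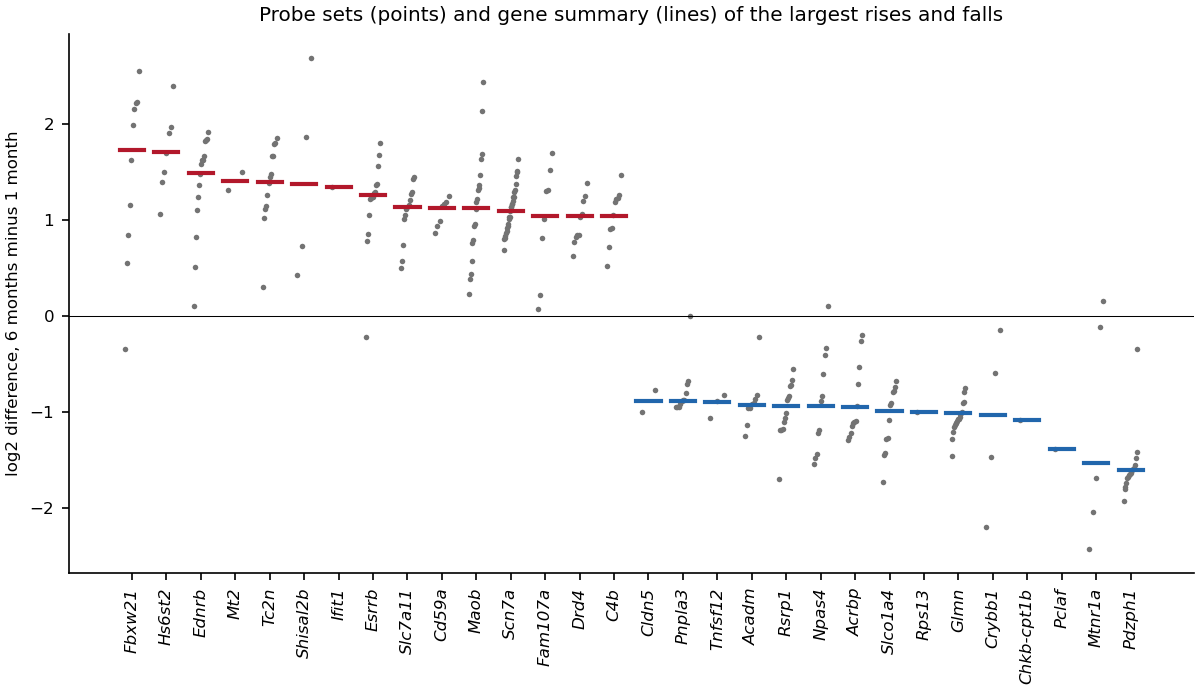
For the 15 largest rises (left, red) and the 15 largest falls (right, blue) among genes whose groups did not overlap, points are the log2 differences (6 months minus 1 month, y axis) of single probe sets and the bar is the gene's summary. Nearly all points share the sign of their gene; Ifit1, Rps13, Chkb-cpt1b and Pclaf rest on 1 probe set each.

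Among the falls, Pdzph1, which encodes a protein with PDZ and pleckstrin homology domains, came first of the genes whose groups did not overlap. Its level was 6.72, 7.18, 7.19 and 7.14 at 6 months, against 8.79, 8.67, 8.62 and 8.58 at 1 month. All 17 probe sets fell and the older arrays were all far below the younger (change -1.60 ± 0.14 SE, limma adjusted p = 9.71e-07), although the brightest probe set alone changed by -0.34 and was not called (limma adjusted p = 0.237). Mtnr1a, the melatonin receptor MT1, was at 5.41, 5.59, 5.15 and 5.39 at 6 months, against 6.93, 7.06, 6.61 and 7.07 at 1 month. The groups lay far apart, and the change was -1.53 ± 0.19 (SE; limma adjusted p = 3.22e-05), or 0.35-fold. Pclaf, a partner of the replication clamp PCNA that is read by 1 probe set, was 4.41 to 5.81 at 6 months, against 6.29 to 6.79 at 1 month (change -1.39 ± 0.32 SE, limma adjusted p = 0.00531). Its 6-month arrays lay near or below the lower limit set for testing, and the call was lost with the lens mean as a covariate (adjusted p = 0.0757). Chkb-cpt1b, a readthrough transcript of neighbouring genes with 1 probe set, had a change of -1.08 ± 0.35 (SE; limma adjusted p = 0.0442), which was lost without any of 6 of the 8 arrays. Crybb1, a lens crystallin, was 7.30 to 7.95 at 6 months, against 8.29 to 9.03 at 1 month (change -1.03 ± 0.15 SE, limma adjusted p = 0.000158), lower like Cryaa of the same list.

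Glmn, glomulin, a regulator of cullin ubiquitin ligases, was at 7.64, 7.95, 8.11 and 7.87 at 6 months, against 9.01, 8.85, 8.95 and 8.80 at 1 month, with no overlap and all 18 probe sets lower (change -1.01 ± 0.13 SE, limma adjusted p = 5.85e-05). Rps13, a protein of the small ribosomal subunit read by 1 probe set, was at 6.90, 6.81, 5.74 and 6.38 at 6 months, against 7.34, 7.63, 7.78 and 7.07 at 1 month. Its older arrays spread widely, the call was lost without 4 of the 8 arrays in turn, and ribosomal proteins have many processed copies in the genome with which a probe may share signal (change -1.0 ± 0.29 SE, limma adjusted p = 0.0252). Acrbp, a protein best known from sperm acrosomes, was 6.5 to 7.08 at 6 months, against 7.26 to 7.97 at 1 month (change -0.95 ± 0.16 SE, limma adjusted p = 0.000483). Tnfsf12, the cytokine TWEAK, was 8.28 to 8.64 at 6 months, against 9.29 to 9.62 at 1 month (change -0.89 ± 0.14 SE, limma adjusted p = 0.000304). The remaining genes of the 15 largest falls are members of the lists described below and are given with them.

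**Figure D3:**
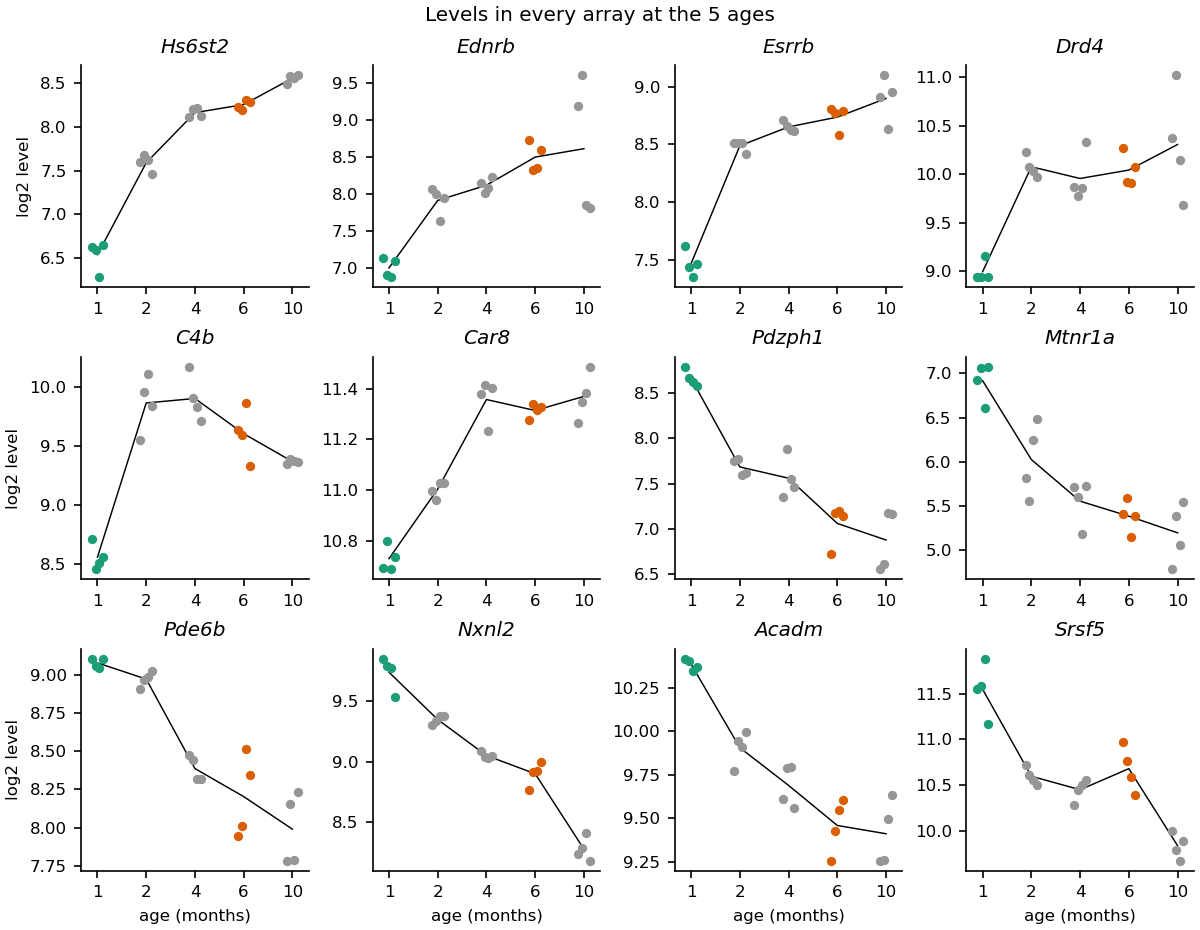
Log2 levels (y axis) of 12 genes in every array at the 5 ages (x axis, ages evenly spaced), with 1 point per mouse, orange for 6 months, green for 1 month and grey for other ages, and a line through the means. In each of the 12 panels the orange points are clear of the green ones; Hs6st2, for example, has means of 6.54, 7.59, 8.16, 8.25 and 8.56 at 1, 2, 4, 6 and 10 months.

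Photoreceptor genes did not change as a block. Of 24 tested cone genes, 2 rose and 8 fell, with a median change of -0.09 against 0.01 for all genes. The short-wavelength opsin Opn1sw was at 13.62, 13.67, 13.77 and 13.71 at 6 months, against 13.73, 13.65, 13.67 and 13.68 at 1 month, so the groups overlapped, and its change was 0.01 ± 0.05 (SE; limma adjusted p = 0.94). Gnat2, the cone transducin alpha subunit (change 0.02 ± 0.05 SE, limma adjusted p = 0.848), and Pde6c, the cone phosphodiesterase (change -0.13 ± 0.06 SE, limma adjusted p = 0.15), did not pass the test either. Opn1mw, the middle-wavelength opsin, was at 11.58, 11.60, 11.73 and 11.55 at 6 months, against 11.89, 11.87, 11.79 and 11.85 at 1 month, all 4 older arrays being lower by a small margin (change -0.23 ± 0.06 SE, limma adjusted p = 0.0121). Arr3, cone arrestin, had overlapping arrays (12.07 to 12.29 at 6 months, against 12.20 to 12.50 at 1 month) and a change of -0.23 ± 0.07 (SE; limma adjusted p = 0.029), a call lost without any of 6 arrays. Gngt2, the cone transducin gamma subunit, fell by 0.29, Rcvrn, the calcium sensor recoverin, by 0.25, and Gnb3, the cone transducin beta subunit, by 0.16 on the log2 scale. The 8 falls were 5 without 1-month replicates 1, 2 or 3 or 6-month replicate 1, 4 without 6-month replicate 2, and 4 with the lens mean as a covariate or in the brightest probe sets. The rises (Thrb, and Lhfp, a cone tetraspan protein, by 0.14) were 1 without 1-month replicate 1 or 2 or 6-month replicate 1, 3 or 4.

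A few photoreceptor genes changed more. Guca1b, a guanylate cyclase activating protein that restores cyclic GMP after light, was at 9.26, 8.97, 8.88 and 8.95 at 6 months, against 9.83, 9.81, 10.07 and 9.57 at 1 month. Its older arrays were all lower (change -0.81 ± 0.11 SE, limma adjusted p = 7.08e-05, or 0.57-fold), and the means were 9.82, 9.47, 9.28, 9.01 and 8.94 at 1, 2, 4, 6 and 10 months. Pde6b, the beta subunit of the rod phosphodiesterase, was at 7.94, 8.01, 8.51 and 8.35 at 6 months, against 9.11, 9.06, 9.05 and 9.11 at 1 month. The 1-month arrays agreed closely and the 6-month arrays formed a lower and a higher pair, all below them (change -0.88 ± 0.11 SE, limma adjusted p = 4.05e-05). Of 14 tested rod genes 2 rose (Esrrb, and Samd7, a photoreceptor Polycomb partner, with a change of 0.58 ± 0.15 SE, limma adjusted p = 0.0111) and 2 fell (Pde6b, and Sag, rod arrestin, with a change of -0.16 ± 0.05 SE, limma adjusted p = 0.0295), and the median was 0.01. The fall of Sag was lost without 1-month replicate 1 or 3 or 6-month replicate 1 or 2.

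Photoreceptor transcription factors moved in both directions, 3 rising and 2 falling of 16 tested. Thrb, the thyroid hormone receptor beta that specifies middle-wavelength cones, was at 9.53, 9.69, 9.71 and 9.63 at 6 months, against 9.20, 9.19, 9.03 and 9.14 at 1 month. The older arrays were all higher (change 0.50 ± 0.06 SE, limma adjusted p = 2.73e-05). Nr2f1, a nuclear receptor of retinal patterning, had 1 younger array level with the older ones (7.57 to 7.72 at 6 months, against 7.17 to 7.57 at 1 month; change 0.33 ± 0.09 SE, limma adjusted p = 0.0189). Neurod1, a helix-loop-helix factor that photoreceptors need for survival, fell (11.79 to 11.91 at 6 months, against 12.12 to 12.26 at 1 month; change -0.33 ± 0.07 SE, limma adjusted p = 0.00489), as did Prdm1, the factor that commits precursors to the photoreceptor fate (9.03 to 9.31 at 6 months, against 9.46 to 9.62 at 1 month; change -0.36 ± 0.11 SE, limma adjusted p = 0.0292), and the call of Prdm1 was lost without 1-month replicate 1, 3 or 4 or 6-month replicate 3 or 4.

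The outer segment and connecting cilium list lay on the lower side, with 1 gene higher and 10 lower of 36 tested and a median of -0.09. Rpgrip1, which anchors the GTPase regulator in the connecting cilium, was at 9.54, 9.37, 9.38 and 9.29 at 6 months, against 10.15, 10.04, 10.34 and 10.06 at 1 month. All older arrays were lower, all 29 probe sets fell, and the change was -0.75 ± 0.08 (SE; limma adjusted p = 8.38e-06). Fscn2, an actin bundler of disc formation, fell by 0.50, Lca5, lebercilin of the ciliary axoneme, by 0.39, Nphp4, of the transition zone, by 0.39, and Bbs2, of the cargo complex BBSome, by 0.30. Prom1, Tulp1, Arl3, Whrn and Bbs9 fell by 0.18 to 0.27 on the log2 scale, and Pcdh15, a cadherin of calyceal processes, rose by 0.18. Leaving out any 1 of the 8 arrays left 8 to 10 lower genes, the lens covariate left 10, and the brightest probe sets gave 5. In the interphotoreceptor matrix list 3 of 9 fell. Nxnl2, a relative of the rod-derived cone viability factor, was at 8.77, 8.91, 8.92 and 9.0 at 6 months, against 9.85, 9.79, 9.78 and 9.54 at 1 month, with a wide gap between the groups (change -0.84 ± 0.07 SE, limma adjusted p = 3.31e-07). Impg1, a matrix proteoglycan, was 9.45 to 9.85 at 6 months, against 10.16 to 10.37 at 1 month (change -0.53 ± 0.13 SE, limma adjusted p = 0.00767). Egflam, pikachurin of the photoreceptor ribbon synapse, fell by 0.17.

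**Figure D4:**
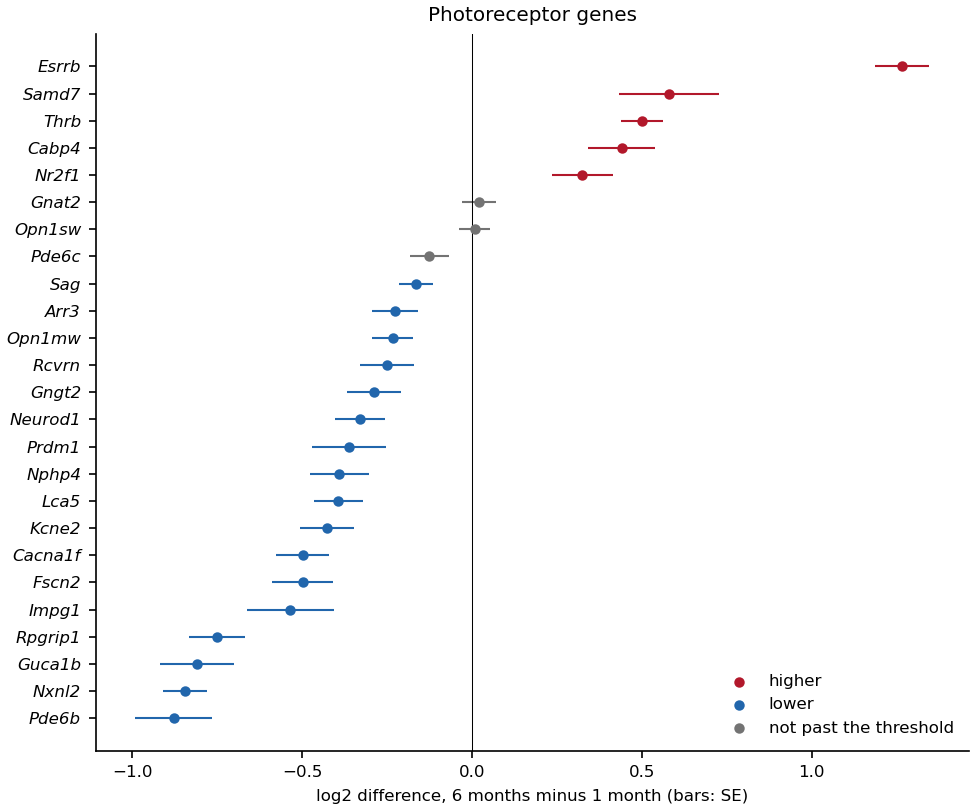
Log2 differences (6 months minus 1 month, x axis) with their standard errors (bars) for 25 photoreceptor genes, ordered by change (y axis); red is higher, blue lower, grey not past the threshold. Opn1sw, Gnat2 and Pde6c are grey, Esrrb lies alone at the upper end with 1.27, and Pde6b, Nxnl2, Guca1b and Rpgrip1 lie at -0.75 or below.

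At the photoreceptor synapse 3 genes rose and 3 fell of 26. Cacna1f, the pore of the presynaptic calcium channel, was at 10.47, 10.39, 10.21 and 10.26 at 6 months, against 10.84, 10.85, 10.96 and 10.67 at 1 month. Each older array was below each younger one and all 48 probe sets fell (change -0.50 ± 0.08 SE, limma adjusted p = 0.000258). Elfn1, the adhesion protein that photoreceptors present to bipolar cells, fell by 0.39, and Stx3, the syntaxin of ribbon synapses, by 0.19. Cabp4, the calcium-binding partner of the same channel, rose (9.63 to 9.93 at 6 months, against 9.01 to 9.48 at 1 month; change 0.44 ± 0.10 SE, limma adjusted p = 0.0045), as did Lrfn2, an adhesion protein of the synapse (9.76 to 10.23 at 6 months, against 9.28 to 9.47 at 1 month; change 0.60 ± 0.13 SE, limma adjusted p = 0.00423) and Lrit1, by 0.19. In the retinoid cycle 3 rose and 1 fell of 20. Rlbp1, the retinal-binding protein of Müller glia and pigment epithelium, was at 11.29, 11.27, 11.49 and 11.35 at 6 months, against 10.92, 10.89, 10.92 and 10.83 at 1 month, all older arrays higher (change 0.46 ± 0.06 SE, limma adjusted p = 5.43e-05). Aldh1a1, which makes retinoic acid, rose by 0.66 and Rdh10, a retinol dehydrogenase, by 0.28, while Rdh12, the dehydrogenase of photoreceptor inner segments, fell by 0.29, a call lost without 6-month replicate 2. The rises at the synapse were 5 without replicate 4 of the 4-month arrays and 1 with the lens covariate.

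Genes of bipolar cells, the interneurons that carry photoreceptor signals inwards, lay on the higher side. Of 32 tested, 17 rose and 2 fell, the median change was 0.19, and 28 changes were positive. Car8, a carbonic anhydrase-related protein, was at 11.28, 11.34, 11.31 and 11.33 at 6 months, against 10.69, 10.80, 10.69 and 10.74 at 1 month. The arrays of each age lay close together and the gap between the ages was wide, with a change of 0.58 ± 0.05 (SE; limma adjusted p = 1.11e-06). Qpct, glutaminyl cyclase, rose by 0.49, Tacr3, the neurokinin B receptor of OFF bipolar cells, by 0.46, Cabp5, a calcium-binding protein of rod and cone bipolar cells, by 0.38, and Scgn, secretagogin, by 0.36. Cabp5 was at 12.13, 12.20, 12.36 and 12.25 at 6 months, against 11.96, 11.84, 11.85 and 11.76 at 1 month, and its groups did not overlap (limma adjusted p = 0.000333). Prkca, the protein kinase of rod bipolar cells, rose by 0.28, Vsx1, a homeodomain factor of cone bipolar cells, by 0.30, and Grik1, a kainate receptor of OFF bipolar cells, by 0.26. Grm6, the glutamate receptor of ON bipolar cells, fell by 0.26 and Lhx4, a LIM homeodomain factor, by 0.27. The 17 were 11 without 1-month replicate 4 or 6-month replicate 3, 10 with the lens mean as a covariate and 9 in the brightest probe sets. The 2 falls were 0 without 1-month replicate 1 or 6-month replicate 3 or 4 and 1 without 1-month replicate 2 or 3 or 6-month replicate 2.

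Other inner neurons had fewer called genes. Of 13 horizontal cell genes 2 rose, Prox1 by 0.43 (10.42 to 10.52 at 6 months, against 9.87 to 10.17 at 1 month) and Onecut2 by 0.36, both homeodomain factors that horizontal cells keep. Of 27 amacrine genes 4 rose and 1 fell. Gad2, a GABA-synthesising enzyme, was 9.07 to 9.22 at 6 months, against 8.50 to 8.87 at 1 month (change 0.39 ± 0.07 SE, limma adjusted p = 0.00136). Gad1, Chat and Slc5a7, the choline transporter, rose by 0.21, 0.22 and 0.39, whereas Slc18a3, the vesicular acetylcholine transporter encoded within the Chat locus, fell by 0.38. The rises among amacrine genes numbered 2 without 1-month replicate 3 or with the lens covariate and 1 in the brightest probe sets, and the call of Slc18a3, which rests on 1 probe set, was lost without 1-month replicate 1 or 2 or 6-month replicate 1 or 3. Of 22 ganglion cell genes, which stand for the retina's output neurons, Nell2 rose by 0.43 and Ebf1 by 0.26 (1 of them without 1-month or 6-month replicate 3).

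Among genes of ion channels and of glutamate, GABA and glycine receptors rises outnumbered falls, though by little for sodium and calcium channels. Of 60 potassium channel genes 12 rose and 2 fell (median 0.09), the rises being 7 with the lens covariate and 6 in the brightest probe sets. Kcnk1, a leak channel of the TWIK family, was at 10.16, 10.16, 10.19 and 10.17 at 6 months, against 9.74, 9.77, 9.59 and 9.60 at 1 month, 6-month arrays all higher and close together (change 0.49 ± 0.06 SE, limma adjusted p = 5.25e-05). Kcng3, a silent subunit, rose by 0.42, Kcnmb2, a subunit of the large calcium-activated channel, by 0.41, and Kcnj10, the glial inward rectifier Kir4.1, by 0.34. Kcnip2, a cytosolic subunit, fell in the summary by 0.54 but stood higher by 0.38 in its brightest probe set, not called. Kcne2, an accessory subunit on the cone list, fell (10.36 to 10.61 at 6 months, against 10.88 to 10.97 at 1 month; change -0.43 ± 0.08 SE, limma adjusted p = 0.00107). Of 34 receptors for glutamate, GABA and glycine 8 rose and 1 fell (median 0.12). Gabra3 (10.17 to 10.24 at 6 months, against 9.83 to 9.92 at 1 month; change 0.33 ± 0.06 SE, limma adjusted p = 0.000614), Gabrr2, a rho subunit of bipolar cell GABA receptors (9.53 to 9.59 at 6 months, against 9.21 to 9.31 at 1 month; change 0.31 ± 0.05 SE, limma adjusted p = 0.000207), and Glra3, a glycine receptor subunit (change 0.49 ± 0.13 SE, limma adjusted p = 0.0107), were among the 8. That count was 3 without 1-month replicate 3, 4 without 6-month replicate 3, 5 without 6-month replicate 2 or 4, 3 with the lens covariate and 4 in the brightest probe sets. The fall was that of Grm6, lost without 1-month replicate 1, 2 or 3 or 6-month replicate 3 or 4. In the 29 sodium and calcium channel genes 4 rose, among them Scn7a and Cacnb4 (by 0.31), and 3 fell, Cacna1f, Cacnb2 (9.86 to 10.02 at 6 months, against 10.33 to 10.39 at 1 month; change -0.41 ± 0.05 SE, limma adjusted p = 5.33e-05), the subunit of the photoreceptor channel, and Cacnb1 (by 0.27). The rises of the last list were 2 without 1-month replicate 3. With the lens covariate that list had 1 rise and 2 falls.

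**Figure D5:**
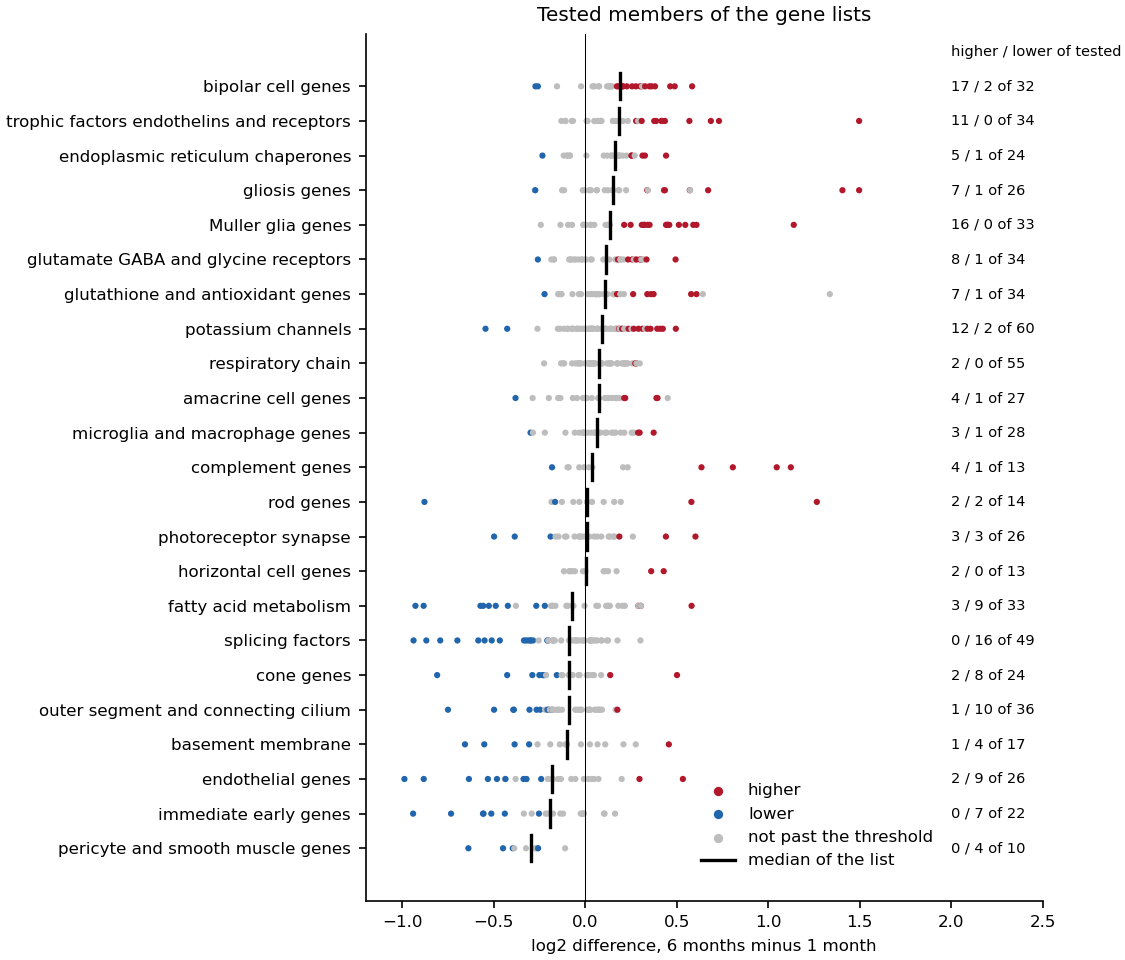
Log2 differences (6 months minus 1 month, x axis) of all tested members of 23 gene lists (rows, ordered by median), in red where higher, blue where lower and grey where not past the threshold; the bar is the median and the figures at the right give higher and lower counts of the members tested. Of the 23 lists shown, bipolar cell genes have the highest median (0.19) and pericyte and smooth muscle genes the lowest (-0.30).

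Müller glia, the radial support cells of the retina, had 16 of 33 tested genes higher and none lower, with a median of 0.13. Aqp4, the water channel of their end feet, was at 9.93, 9.85, 9.99 and 9.92 at 6 months, against 9.40, 9.33, 9.15 and 9.44 at 1 month. All 6-month arrays exceeded all 1-month arrays (change 0.59 ± 0.09 SE, limma adjusted p = 0.000144, or 1.51-fold). Car14, a membrane carbonic anhydrase, was 10.08 to 10.26 at 6 months, against 9.50 to 9.77 at 1 month (change 0.55 ± 0.07 SE, limma adjusted p = 5.33e-05). Timp3, a metalloproteinase inhibitor, was 9.85 to 10.15 at 6 months, against 9.40 to 9.52 at 1 month (change 0.51 ± 0.13 SE, limma adjusted p = 0.0106). Dkk3, a secreted dickkopf protein, was 11.64 to 11.85 at 6 months, against 11.20 to 11.41 at 1 month (change 0.45 ± 0.07 SE, limma adjusted p = 0.000149). Glul, the glutamine synthetase that clears glutamate, rose by 0.31, Apoe, the lipid carrier, by 0.45, Hes1, a Notch effector, by 0.44, and Slc1a3, the glial glutamate transporter, by 0.32. The count was 15 or 16 without any 1 array and 11 with the lens covariate. The rises did not include Gfap, the filament protein that marks reactive glia, which was at 8.27, 8.21, 8.44 and 8.08 at 6 months, against 8.55, 8.25, 8.42 and 8.29 at 1 month (change -0.13 ± 0.13 SE, limma adjusted p = 0.58) and whose groups overlapped.

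Of 26 gliosis genes 7 rose and 1 fell (median 0.15). Besides Ednrb and Mt2, A2m, a protease inhibitor, was 8.72 to 9.15 at 6 months, against 8.16 to 8.37 at 1 month (change 0.67 ± 0.18 SE, limma adjusted p = 0.0128). Serpina3n, an acute-phase serpin, was 9.73 to 10.14 at 6 months, against 9.19 to 9.55 at 1 month (change 0.57 ± 0.17 SE, limma adjusted p = 0.0249). Fgf2, a growth factor that protects photoreceptors, was 8.61 to 8.90 at 6 months, against 8.25 to 8.45 at 1 month (change 0.44 ± 0.12 SE, limma adjusted p = 0.0149). Serpina3n and Fgf2 were higher still on average at 2 and 4 months, the course being 9.41, 10.37, 10.48, 9.98 and 9.64 at 1, 2, 4, 6 and 10 months for Serpina3n and 8.31, 9.24, 9.07, 8.75 and 8.63 at 1, 2, 4, 6 and 10 months for Fgf2. The fall was that of Nes, nestin, by 0.27, and was lost without 1-month replicate 1, 3 or 4 or 6-month replicate 2, 3 or 4. The lens covariate left 3 rises. Mt1 rose by 0.43 over 3 probe sets, 1 of which went the other way, and the other 4 tested metallothioneins did not pass the test. The list of trophic factors, endothelins and their receptors had 11 of 34 higher and none lower (median 0.18, 7 with the lens covariate). Ptn, pleiotrophin, was 7.10 to 7.46 at 6 months, against 6.4 to 6.73 at 1 month (change 0.73 ± 0.10 SE, limma adjusted p = 0.000104). Egfr, the epidermal growth factor receptor, was 8.77 to 8.86 at 6 months, against 7.94 to 8.37 at 1 month (change 0.69 ± 0.08 SE, limma adjusted p = 1.84e-05). Cntfr, the receptor for ciliary neurotrophic factor, was 9.73 to 9.94 at 6 months, against 9.18 to 9.37 at 1 month (change 0.57 ± 0.06 SE, limma adjusted p = 1.33e-05). Fgfr1, Pgf, Fgf13, Hgf, Ntrk2 and Gfra1 rose by 0.28 to 0.42.

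Antioxidant genes had 7 of 34 higher and 1 lower (median 0.11). Prdx6, a peroxiredoxin rich in glia, was at 10.14, 10.21, 10.24 and 10.18 at 6 months, against 9.56, 9.64, 9.50 and 9.63 at 1 month, with groups clear of each other (change 0.61 ± 0.07 SE, limma adjusted p = 1.37e-05). Gstt1 and Gstm5, glutathione transferases, rose by 0.58 and 0.37, Gclm, of glutathione synthesis, by 0.36, and Gpx4, which reduces lipid peroxides, by 0.34. The 7 were 4 without 1-month replicate 3, 3 without 6-month replicate 3 or in the brightest probe sets and 2 with the lens covariate. The fall was that of Gsr, glutathione reductase, by 0.22, lost without replicate 2 of either age. Of 24 chaperones of the endoplasmic reticulum 5 rose and 1 fell (median 0.16). Hspa5, the chaperone BiP, was at 11.44, 11.53, 11.66 and 11.53 at 6 months, against 11.21, 10.99, 11.07 and 11.12 at 1 month, each older array above each younger (change 0.44 ± 0.09 SE, limma adjusted p = 0.00259). Dnajc3, Sdf2l1, Herpud1 and Hyou1 rose by 0.33, 0.31, 0.25 and 0.25, and 2 rises were left with the lens covariate or in the brightest probe sets. The fall was that of Dnajb11, a partner of BiP, by 0.23, lost without 1-month replicate 1, 2 or 4 or 6-month replicate 1 or 3. Among 20 ATF4 targets Nupr1, a stress-induced chromatin protein, rose by 0.72 beside Slc7a11, and Shmt2, of mitochondrial one-carbon metabolism, fell by 0.27. Of 22 heat shock genes Dnajb4 rose and Hsf1, the heat shock factor, fell, by 0.23 and 0.35, the rise being lost without 6 of the 8 arrays in turn (all but 1-month replicate 4 and 6-month replicate 1).

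Complement and immune genes gave a few large rises, most other members not passing the test. Of 13 complement genes 4 rose and 1 fell (median 0.04). Cfi, the protease that cleaves C3b and C4b, was at 6.27, 6.46, 6.69 and 6.66 at 6 months, against 5.79, 5.78, 5.55 and 5.72 at 1 month, and Serping1, the inhibitor of C1, at 8.90, 8.82, 8.85 and 8.68 at 6 months, against 8.35, 8.07, 8.17 and 8.13 at 1 month. Both had older arrays above all younger ones, with changes of 0.81 ± 0.12 (SE; limma adjusted p = 0.00021) and 0.63 ± 0.12 (SE; limma adjusted p = 0.00163), and the 4 rises (with C4b and Cd59a) were called without each of the 8 arrays. With the lens covariate the list had 4 rises and no fall. Vtn, vitronectin, fell by 0.18, a call lost without 1-month replicate 1 or 6-month replicate 2 or 4. Of 28 microglia and macrophage genes 3 rose, namely Ctss, cathepsin S, by 0.37, Tmem119 by 0.30 and Fcgr3, an Fc receptor, by 0.29, and Cx3cr1, the fractalkine receptor, fell by 0.30. The rises were 1 without 1-month replicate 2 or 4 and 0 in the brightest probe sets, and the fall of Cx3cr1 was lost without 1-month replicate 1 or 3 or 6-month replicate 2 or 3. B2m, the light chain of class I molecules, was at 9.10, 9.06, 9.23 and 9.22 at 6 months, against 8.78, 8.38, 8.51 and 8.55 at 1 month (change 0.59 ± 0.10 SE, limma adjusted p = 0.00042), with no overlap, and Psmb8, an immunoproteasome subunit, rose by 0.46. They were the 2 called of 15 antigen presentation genes. Of 22 interferon-induced genes Ifit1, Oasl2 (8.15 to 8.27 at 6 months, against 7.48 to 7.94 at 1 month; change 0.47 ± 0.11 SE, limma adjusted p = 0.00473) and Trim30a (change 0.49 ± 0.16 SE, limma adjusted p = 0.0444) rose, a count that ran from 1 (without 1-month replicate 2 or 3 or 6-month replicate 3, or with the lens covariate) to 6 (without 1-month replicate 1). Cxcl13, a B-cell chemokine, was called on overlapping arrays (6.47 to 6.68 at 6 months, against 5.14 to 6.5 at 1 month; change 0.70 ± 0.21 SE, limma adjusted p = 0.0316), and was lost without 1-month replicate 2 or 4 or 6-month replicate 1, 3 or 4. Cd8a, a co-receptor of T cells and 1 of 4 tested lymphocyte genes, had a change of 0.25 ± 0.11 (SE; limma adjusted p = 0.145).

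Of the genes of the blood vessels more fell than rose. Of 26 endothelial genes 2 rose and 9 fell, with a median change of -0.18, although the median in the brightest probe sets was 0.01. Slco1a4, an organic anion transporter of the blood-retina barrier, was at 6.64, 6.48, 6.92 and 6.62 at 6 months, against 7.74, 7.63, 7.44 and 7.8 at 1 month. The nearest pair of arrays was 6.92 and 7.44 (change -0.99 ± 0.20 SE, limma adjusted p = 0.00227, or 0.50-fold). Cldn5, the claudin of endothelial tight junctions, was at 6.11, 6.88, 6.48 and 5.76 at 6 months, against 7.47, 7.04, 7.19 and 7.05 at 1 month, with wide spread among the older mice (change -0.88 ± 0.21 SE, limma adjusted p = 0.0065). Tek, the angiopoietin receptor, was 6.22 to 6.32 at 6 months, against 6.72 to 7.15 at 1 month (change -0.64 ± 0.09 SE, limma adjusted p = 0.000101). Cdh5, VE-cadherin, was 6.81 to 7.01 at 6 months, against 7.16 to 7.73 at 1 month (change -0.53 ± 0.10 SE, limma adjusted p = 0.00089), though the brightest probe set of Cdh5 changed by 0.02. Eng, Tie1, Egfl7, Pecam1 and Nos3 fell by 0.24 to 0.48 on the log2 scale. Flt1, a receptor for vascular endothelial growth factor, rose (8.96 to 9.06 at 6 months, against 8.35 to 8.76 at 1 month; change 0.53 ± 0.08 SE, limma adjusted p = 0.000239), and Plvap, of fenestrated endothelium, by 0.30. The falls numbered 7 to 10 without any 1 array, 5 with the lens covariate and 2 in the brightest probe sets, and the rises were 1 without replicate 1 or 4 of either age. With the dimmest 50% of genes left out of the fit, 1 fall and 1 rise were called. Dim members of the list were not tested in that fit, so this count is not one of lost calls alone.

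All 10 tested genes of pericytes and smooth muscle, the mural cells of vessels, had negative changes, with a median of -0.30, and 4 were called (7 without replicate 4 of the 4-month arrays). In the brightest probe sets the median was -0.12 and 1 gene was called, and with the dimmest 50% of genes left out of the fit 2 were. Dim members were again not tested in the latter fit. Rgs5, a G protein regulator that marks pericytes, was at 8.08, 8.10, 8.27 and 7.99 at 6 months, against 8.81, 8.77, 8.65 and 8.76 at 1 month. Its groups did not overlap (change -0.64 ± 0.10 SE, limma adjusted p = 0.000208). Abcc9, a channel subunit of mural cells, fell by 0.45, Notch3 by 0.40 and Pdgfrb, the platelet-derived growth factor receptor, by 0.26, with Notch3 at 0.13 and not called in its brightest probe set. In 17 basement membrane genes 1 rose and 4 fell. Nid1, nidogen, was 5.72 to 5.88 at 6 months, against 6.27 to 6.61 at 1 month (change -0.66 ± 0.08 SE, limma adjusted p = 2.67e-05). Col4a1 was 7.22 to 7.42 at 6 months, against 7.82 to 7.93 at 1 month (change -0.55 ± 0.06 SE, limma adjusted p = 1.52e-05). Lamc1, a laminin chain, was 7.96 to 8.02 at 6 months, against 8.32 to 8.52 at 1 month (change -0.39 ± 0.06 SE, limma adjusted p = 0.000136). The brightest probe set of Col4a1 changed by 0.24 and was not called. Col4a2 fell by 0.31, and Col4a6, of another collagen IV network, rose by 0.46. In 26 genes of fibrillar collagens and matrix, Sparc, a matrix glycoprotein, was at 10.43, 10.58, 10.61 and 10.48 at 6 months, against 11.24, 11.12, 11.14 and 11.20 at 1 month, with all older arrays lower (change -0.65 ± 0.06 SE, limma adjusted p = 1.83e-06). Col6a1 fell by 0.51, and Tnc and Tnr, tenascins, rose by 0.32 and 0.31. The falls were 1 without 6-month replicate 4, and the rises 1 without it or without 1-month replicate 3 and 0 with the lens covariate.

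Of 49 splicing genes 16 fell and none rose, with a median of -0.09. The 16 were Rsrp1, Srsf5, Luc7l3, Hnrnpdl, 4 Clk kinases, Srpk3, Rbm5, Rbm25, Srsf9, Luc7l, Srsf6, Nktr and Hnrnpl, which include SR proteins, kinases of SR proteins and U1-associated proteins. Srsf5, an SR splicing factor, was at 10.98, 10.76, 10.59 and 10.38 at 6 months, against 11.55, 11.59, 11.88 and 11.17 at 1 month. The older arrays were all lower, with the nearest pair at 10.98 and 11.17 (change -0.87 ± 0.13 SE, limma adjusted p = 0.00017), and the means were 11.55, 10.60, 10.45, 10.68 and 9.84 at 1, 2, 4, 6 and 10 months. Rsrp1, an arginine and serine rich protein, was at 9.58, 9.39, 9.33 and 9.08 at 6 months, against 10.48, 10.36, 10.30 and 9.99 at 1 month (change -0.94 ± 0.11 SE, limma adjusted p = 1.71e-05), with the groups clear of each other. Luc7l3, of the U1 particle, was 9.62 to 9.90 at 6 months, against 10.32 to 10.92 at 1 month (change -0.79 ± 0.13 SE, limma adjusted p = 0.000449). Hnrnpdl was 8.72 to 8.80 at 6 months, against 9.25 to 9.64 at 1 month (change -0.70 ± 0.11 SE, limma adjusted p = 0.000421). Clk4, an SR protein kinase, was 8.06 to 8.18 at 6 months, against 8.57 to 8.80 at 1 month (change -0.58 ± 0.10 SE, limma adjusted p = 0.000818). The count was 13 to 16 without any 1 array, 17 with the lens covariate and 10 in the brightest probe sets. Of 5 long nuclear RNAs Meg3 and Snhg11 fell, Meg3 (9.17 to 9.85 at 6 months, against 9.99 to 10.61 at 1 month) with a change of -0.83 ± 0.15 (SE; limma adjusted p = 0.000768) and Snhg11 (7.97 to 8.85 at 6 months, against 9.05 to 9.49 at 1 month) with one of -0.85 ± 0.17 (SE; limma adjusted p = 0.00175).

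Immediate early genes, which respond quickly to neuronal activity, had none higher and 7 lower of 22, with a median of -0.19. Npas4, a factor induced by calcium influx, was at 6.21, 6.11, 5.89 and 6.15 at 6 months, against 6.85, 7.03, 7.27 and 6.99 at 1 month. All older arrays lay below the younger (change -0.94 ± 0.20 SE, limma adjusted p = 0.00346). Egr1, a zinc finger factor, was 7.94 to 8.24 at 6 months, against 8.67 to 9.19 at 1 month (change -0.73 ± 0.13 SE, limma adjusted p = 0.000716). Nr4a1, an orphan nuclear receptor, was 9.72 to 10.14 at 6 months, against 10.41 to 10.75 at 1 month (change -0.56 ± 0.14 SE, limma adjusted p = 0.0103). Egr3, Fos, Dusp1 and Btg2 fell by 0.56, 0.51, 0.44 and 0.25. The falls were 5 to 7 without any 1 array, 2 with the lens covariate and 4 in the brightest probe sets. Some of these genes stood higher at 10 months than at 6 months, Egr1 by 1.13 (adjusted p = 8.02e-06), Fos by 1.11 (adjusted p = 2.81e-05), Nr4a1 by 1.07 (adjusted p = 3.28e-05) and Npas4 by 0.97 (adjusted p = 0.00198). The 10-month values of Egr3, Dusp1 and Btg2 are not given here. The hour at which the retinas were taken is not among the labels, and whether it differed between ages was not tested.

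Of 9 tested genes of melatonin and dopamine signalling, the night and day signals of the retina, Drd4 and Drd2 (by 0.29) rose and Mtnr1a fell. Of 18 clock genes, Hlf, Bhlhe40 and Cry1 rose by 0.23, 0.22 and 0.17, and Arntl and Csnk1e fell by 0.24 and 0.18. Of these 5, only Bhlhe40 kept its call without each of the 8 arrays, and the 3 rises were 0 with the lens covariate and 0 in the brightest probe sets, where the falls were 0 as well. The falls were 0 without 1-month replicate 1, 2 or 3 or 6-month replicate 1 or 4 and 1 without any of the other 3, and the rises 1 without 1-month replicate 3 or 6-month replicate 2 or 4.

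Genes of fatty acid metabolism had 3 higher and 9 lower of 33 tested (median -0.07). Acadm, the medium-chain acyl-CoA dehydrogenase of mitochondrial beta-oxidation, was at 9.26, 9.43, 9.55 and 9.61 at 6 months, against 10.42, 10.41, 10.35 and 10.37 at 1 month. The younger arrays agreed closely and the older ones were all far below (change -0.93 ± 0.09 SE, limma adjusted p = 2.09e-06, or 0.53-fold). Pnpla3, a lipase of lipid droplets, was at 9.32, 9.07, 8.95 and 8.98 at 6 months, against 10.00, 10.06, 10.09 and 9.70 at 1 month, without overlap (change -0.88 ± 0.10 SE, limma adjusted p = 1.71e-05). Cpt1a, the carnitine transferase that admits fatty acids to mitochondria, was 10.09 to 10.43 at 6 months, against 10.78 to 10.88 at 1 month (change -0.53 ± 0.11 SE, limma adjusted p = 0.00331). Acadvl, the very-long-chain dehydrogenase, was 8.19 to 8.55 at 6 months, against 8.55 to 8.95 at 1 month, its groups touching at 8.55 (change -0.42 ± 0.08 SE, limma adjusted p = 0.0019). Elovl7 and Elovl6, elongases, fell by 0.57 and 0.56, Acsl1, an acyl-CoA synthetase, by 0.49, Elovl4, the elongase of very long photoreceptor lipids, by 0.27, and Cpt1c, a brain form of the transferase, by 0.22. The acyl-CoA thioesterases Acot1 and Acot2 rose by 0.58 and 0.29 and the synthetase Acsl3 by 0.30. Leaving out any 1 array left 8 or 9 falls, and the lens covariate left 9.

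The promoters of 5 of these 9 fallen genes held the nuclear receptor element AGGTCA, to which receptors that govern lipid genes, among others, can bind. They are shown for that shared motif, a set chosen after the values were seen. The sequences are from RefSeq, build GRCm38.p6, from 250 bases before to 50 after the start, 5′ to 3′ along the gene, with that element in capitals (TGACCT where it lies on the opposite strand): Acadm at chr3:153944594-153944893, minus strand, Acadvl at chr11:70015379-70015678, minus strand, Cpt1a at chr19:3323051-3323350, plus strand, Cpt1c at chr7:44974802-44975101, minus strand, and Elovl6 at chr3:129532136-129532435, plus strand.
Acadm: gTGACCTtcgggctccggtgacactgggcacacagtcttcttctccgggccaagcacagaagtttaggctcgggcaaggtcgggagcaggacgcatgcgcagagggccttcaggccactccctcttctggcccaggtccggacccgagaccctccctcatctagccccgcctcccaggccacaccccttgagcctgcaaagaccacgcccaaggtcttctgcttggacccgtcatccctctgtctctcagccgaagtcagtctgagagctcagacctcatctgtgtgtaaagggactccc
Acadvl: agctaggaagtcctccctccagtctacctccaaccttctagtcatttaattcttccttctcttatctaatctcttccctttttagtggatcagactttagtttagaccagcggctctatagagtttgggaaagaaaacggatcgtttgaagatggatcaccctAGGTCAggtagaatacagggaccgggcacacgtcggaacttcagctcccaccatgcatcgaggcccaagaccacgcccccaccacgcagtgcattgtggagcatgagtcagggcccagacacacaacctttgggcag
Cpt1a: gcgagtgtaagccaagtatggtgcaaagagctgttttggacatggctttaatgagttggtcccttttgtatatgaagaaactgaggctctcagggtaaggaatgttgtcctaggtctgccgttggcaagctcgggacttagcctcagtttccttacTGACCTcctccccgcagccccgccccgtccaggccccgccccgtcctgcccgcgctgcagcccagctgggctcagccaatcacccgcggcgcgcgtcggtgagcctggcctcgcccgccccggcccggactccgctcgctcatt
Cpt1c: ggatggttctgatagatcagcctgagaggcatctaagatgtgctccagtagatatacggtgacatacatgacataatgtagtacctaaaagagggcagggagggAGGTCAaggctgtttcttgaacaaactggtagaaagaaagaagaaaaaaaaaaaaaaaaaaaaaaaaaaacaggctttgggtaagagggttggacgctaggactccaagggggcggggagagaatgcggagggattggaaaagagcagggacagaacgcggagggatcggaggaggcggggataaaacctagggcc
Elovl6: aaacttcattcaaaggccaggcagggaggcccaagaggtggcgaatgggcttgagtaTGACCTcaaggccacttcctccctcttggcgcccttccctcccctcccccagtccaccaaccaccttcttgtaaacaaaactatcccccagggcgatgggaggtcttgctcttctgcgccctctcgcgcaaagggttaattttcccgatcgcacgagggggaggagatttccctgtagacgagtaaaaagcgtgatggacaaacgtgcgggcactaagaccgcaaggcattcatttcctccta
AGGTCA was searched on both strands, and 16.3% of the 32851 promoters and 18.1% of the 27025 genes of the table hold it. In all, 6 motifs were searched in 14 groups of called list members with at least 5 promoters, 84 searches, and in 4 of them most of the promoters held the motif. The 5 elements began at positions -249 (Acadm), -87 (Acadvl), -94 (Cpt1a), -146 (Cpt1c) and -193 (Elovl6) from the start, and all 5 genes fell, by 0.93, 0.42, 0.53, 0.22 and 0.56. The match describes letters in these windows, and whether any receptor acts there was not tested.

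Other metabolic lists differed in their share of called genes, which was 16.4% among all tested genes. It was higher among cytosolic ribosomal proteins and lower in the respiratory chain, the citric acid cycle and the proteasome. The remaining lists of this paragraph lay nearer to it. Of 23 glycolysis genes Pdk1, the kinase that closes pyruvate dehydrogenase, rose by 0.55, Slc2a3, a neuronal glucose transporter, by 0.36 and Tpi1 by 0.36, while Pfkfb2 and Pfkp fell by 0.23 and 0.16 (1 of the falls without 1-month replicate 3 or 6-month replicate 4). Of 23 cholesterol genes Abca1, the cholesterol exporter, rose (9.35 to 9.44 at 6 months, against 8.70 to 9.16 at 1 month; change 0.47 ± 0.08 SE, limma adjusted p = 0.000431), and Mvd and Tm7sf2, of the synthesis pathway, fell by 0.29 each, Tm7sf2 on overlapping arrays and lost without 6 of the 8 arrays in turn (all but 1-month replicate 4 and 6-month replicate 1). In the respiratory chain 2 of 55 rose (median 0.08, 43 changes positive), Atp5e and Cox6b1, by 0.28 and 0.27. In the citric acid cycle 1 of 21 rose, Sdhc, by 0.24. Without 6-month replicate 3, with the lens covariate or in the brightest probe sets both counts were 0. The first was 1 without 1-month replicate 3 or 4 or 6-month replicate 2 or 4, and the second 0 without 1-month replicate 3 or 4 or 6-month replicate 4 and 3 without 1-month replicate 1. Of 21 cytosolic ribosomal proteins 4 rose, Rps14, Rps3, Rpl23 and Rps9, and 3 fell, Rps13, Rps25 and Rpl10a. The rises were 0 without 6-month replicate 3, 1 without 1-month replicate 3 or 4 or 6-month replicate 4, and 2 without 1-month replicate 2, and they were 1 with the lens covariate or in the brightest probe sets. Of 30 proteasome genes Psma2 rose by 0.34 and Psmc4 by 0.18, the call of Psmc4 being lost without replicate 3 of either age, 1-month replicate 4 or 6-month replicate 2. With the lens covariate 0 of the proteasome genes rose, and in the brightest probe sets 1. Of 34 genes of lysosome and autophagy Ctsb and Sqstm1 rose, by 0.19 and 0.17, both lost without 6 of the 8 arrays in turn (all but 1-month replicate 1 and 6-month replicate 1), and 4 fell (2 without replicate 1 or 2 of 1 month or replicate 3 or 4 of 6 months), led by Cln3, a lysosomal membrane protein (8.47 to 8.61 at 6 months, against 8.83 to 9.09 at 1 month; change -0.40 ± 0.07 SE, limma adjusted p = 0.000734), with Grn, progranulin, by 0.28, and the cathepsins Ctsl and Ctsa by 0.20 and 0.17. The rises of that list were 0 with the lens covariate or in the brightest probe sets, and the falls 1 and 2.

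Heparan sulfate genes had 4 higher and 1 lower of 31. Besides Hs6st2, Glce, the epimerase of the chain, was 7.93 to 8.19 at 6 months, against 7.28 to 7.54 at 1 month (change 0.62 ± 0.11 SE, limma adjusted p = 0.000732). Sulf1, which removes 6-O-sulfate, was 9.75 to 9.90 at 6 months, against 9.33 to 9.55 at 1 month (change 0.37 ± 0.08 SE, limma adjusted p = 0.00276). Gpc6, a glypican core protein, rose by 0.20. Xylt1, which starts the chains, was at 9.87, 10.01, 9.88 and 9.99 at 6 months, against 10.41, 10.47, 10.33 and 10.50 at 1 month, lower in all older arrays (change -0.49 ± 0.09 SE, limma adjusted p = 0.000847). Axon guidance genes split evenly, 9 higher and 9 lower of 63. Plxnc1, a semaphorin receptor, rose by 0.51 and Ephb1, an ephrin receptor, by 0.48, whereas Epha8 fell by 0.47, Epha10 by 0.33 and Nrp1, neuropilin, by 0.31. The rises were 3 without 1-month replicate 3, 4 without replicate 2 of either age and 5 without 1-month replicate 1, the lens covariate left 2 in each direction, and the brightest probe sets gave 2 rises and 4 falls. Of 49 genes of Notch, BMP and Wnt signalling 5 rose, led by Frzb, a secreted Wnt antagonist (8.83 to 9.13 at 6 months, against 8.29 to 8.43 at 1 month; change 0.64 ± 0.07 SE, limma adjusted p = 4.7e-06), with Bmpr1b, a BMP receptor, by 0.49, and Notch3, Lef1 and Jag1 fell. The falls were 0 with the lens covariate or in the brightest probe sets.

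In the cell cycle list 3 of 32 rose and 3 fell (0 falls in the brightest probe sets). Cdkn2c, an inhibitor of cyclin D kinases, was at 6.80, 6.72, 6.57 and 6.93 at 6 months, against 6.27, 5.91, 6.05 and 5.72 at 1 month, and Cdk6, one of the kinases it inhibits, at 9.0, 9.07, 8.84 and 9.06 at 6 months, against 9.40, 9.36, 9.32 and 9.56 at 1 month. Neither gene's groups overlapped, with changes of 0.76 ± 0.12 (SE; limma adjusted p = 0.000361) and -0.41 ± 0.09 (SE; limma adjusted p = 0.00429). Ccnd1, cyclin D1, rose by 0.40 and Cdk2 fell by 0.32. Of 29 neuronal maturation genes Sox4, a factor of young neurons, fell (7.71 to 7.84 at 6 months, against 7.96 to 8.34 at 1 month; change -0.40 ± 0.07 SE, limma adjusted p = 0.000672), as did Kif21b and Dpysl3, by 0.35 and 0.22, and Ptn rose (2 rises without 1-month replicate 1 or 6-month replicate 2 or 3, 3 without replicate 4 of the 4-month arrays). Of 28 cell death genes Bcl2, a survival factor, rose by 0.20 on overlapping arrays, and Parp1, a DNA repair and death enzyme, fell (8.67 to 8.90 at 6 months, against 9.11 to 9.20 at 1 month; change -0.36 ± 0.07 SE, limma adjusted p = 0.00136), with Endog by 0.19. The rise was lost without replicate 1 or 2 of either age or 6-month replicate 4 and was joined by another without replicate 4 of the 4-month arrays, and the falls were 1 without 1-month replicate 1 or 6-month replicate 3 or 4.

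The ages on either side of 6 months bear on the label settled. Between 6 and 4 months 0 of the 11850 genes (0.0%) were called in limma, 530 having an unadjusted p under 0.05, and the smallest adjusted p was 0.894. The unadjusted count was 307 to 1323 without single arrays of these ages, highest without 4-month replicate 1, and 1176 with the lens covariate, with 0 genes called in each case. None was called with array weights (855 unadjusted) or with trend and robust eBayes (523 unadjusted), and 1 without the filter on dim genes. Between 10 and 6 months 2403 genes were called (20.3%), 1015 higher (8.57%) and 1388 lower (11.7%). With the pigment epithelium mean as a covariate the count was 1360, 528 higher and 832 lower. That mean was 6.95 to 8.06 at 10 months and 6.94 to 7.41 at 6 months, and the Y-linked mean was 4.13 to 7.72 at 10 months and 7.65 to 7.83 at 6 months. The part of either in the changes after 6 months was not tested beyond that fit. Both comparisons share the 6-month arrays with the comparison to 1 month, and the values below are given side by side.

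Hs6st2 had means of 6.54, 7.59, 8.16, 8.25 and 8.56 at 1, 2, 4, 6 and 10 months, with a change of 0.30 (adjusted p = 0.00419) from 6 to 10 months. Ednrb had means of 7.0, 7.91, 8.11, 8.49 and 8.61 at 1, 2, 4, 6 and 10 months, with a change of 0.11 (adjusted p = 0.793) from 6 to 10 months. Its 10-month arrays split widely. Replicates 1 and 2, at 9.18 and 9.60, lay above all 6-month arrays, and replicates 3 and 4, at 7.85 or lower, below them all. The small change of the mean therefore does not show that the level of Ednrb held after 6 months. Mt2 was at 7.83, 9.21, 9.37, 9.24 and 10.71 at 1, 2, 4, 6 and 10 months, with a change of 1.47 (adjusted p = 0.000112) from 6 to 10 months. C4b was highest at 2 and 4 months (8.56, 9.86, 9.90, 9.60 and 9.37 at 1, 2, 4, 6 and 10 months), as were Serping1 (8.18, 9.02, 9.08, 8.81 and 8.47 at 1, 2, 4, 6 and 10 months) and Oasl2 (7.73, 8.33, 8.48, 8.21 and 7.85 at 1, 2, 4, 6 and 10 months). Car8 had means of 10.73, 11.00, 11.36, 11.31 and 11.37 at 1, 2, 4, 6 and 10 months, and Cabp5 had a change of -0.34 (adjusted p = 0.000659) from 6 to 10 months. Hspa5 was at 11.10, 11.66, 11.54, 11.54 and 10.85 at 1, 2, 4, 6 and 10 months, with a change of -0.69 (adjusted p = 3.37e-05) after 6 months, and the 10-month mean was below the 1-month mean.

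Among the fallen genes Nxnl2 was lower at each later age (9.74, 9.35, 9.05, 8.90 and 8.27 at 1, 2, 4, 6 and 10 months), with a change of -0.63 (adjusted p = 3.01e-06) after 6 months. Srsf5 changed by a further -0.84 (adjusted p = 0.000142), Tnfsf12 by -0.79 (adjusted p = 0.000562), Elovl7 by -0.58 (adjusted p = 0.000925) and Impg1 by -0.61 (adjusted p = 0.00239). Acadm (10.39, 9.91, 9.69, 9.46 and 9.41 at 1, 2, 4, 6 and 10 months), Mtnr1a (6.92, 6.02, 5.55, 5.38 and 5.2 at 1, 2, 4, 6 and 10 months) and Rgs5 (8.75, 8.73, 8.28, 8.11 and 7.96 at 1, 2, 4, 6 and 10 months) did not pass the test after 6 months. The level of Mtnr1a was by then already below the lower limit set for testing, where a further fall could hardly be seen. Opn1sw, which had not differed beyond its spread between 6 months and 1 month, had a change of -0.11 (adjusted p = 0.104) from 6 to 10 months, and Opn1mw one of -0.22 (adjusted p = 0.0127). Egflam, which had fallen by 0.17, had a further change of -0.37 (adjusted p = 2.02e-05), and Rdh12 one of -0.59 (adjusted p = 2.81e-05). Of the 15 tested genes of the pigment epithelium list, Krt18, a keratin, fell between 1 and 6 months (8.75 to 8.85 at 6 months, against 9.18 to 9.45 at 1 month; change -0.47 ± 0.09 SE, limma adjusted p = 0.000932), while Enpp2, autotaxin, and Trpm3, a cation channel, rose (Trpm3 by 0.38, Enpp2 9.38 to 9.62 at 6 months, against 8.74 to 8.97 at 1 month; change 0.63 ± 0.14 SE, limma adjusted p = 0.00363).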

How the data were processed

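RNA from both retinas of each of 20 mice was hybridised to Affymetrix exon arrays, 1 array a mouse. The authors deposited log2 values of 194293 exon-level probe sets, made with RMA per the submitters' processing notes, whose software version is not given in the sources used here. RMA corrects background and equalises arrays, so a shift shared by all genes is removed. Probe sets with 1 gene symbol in the platform annotation (179496) were combined by median polish into 15800 genes, and 2020 old symbols were updated through RefSeq. The dimmest 25% of genes (mean log2 level under 5.61) were left out, and 11850 were fitted in limma 3.58.1 (R 4.3.3; lmFit and eBayes without trend) on the 5 ages, 20 arrays and 15 residual degrees of freedom, with Benjamini-Hochberg adjustment. The same fit of 11850 genes was tested on simulated arrays for 6 months against 1 month: it recovered 59.7% of simulated log2 changes of 0.3, 82.1% of those of 0.6 and 98.5% of those of 1.2, and called 11 genes left unchanged. Only 67, 67 and 66 genes were changed by these sizes, in noise drawn independently for each gene and without other differences between ages. The real arrays differ in these settings, so the rates need not hold for them. The number of arrays limits the precision. Tables and figures used Python 3.11.15 with pandas 2.3.3, numpy 2.4.6 and matplotlib 3.10.9.

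Named were the 15 largest rises and falls among called genes whose groups did not overlap (without predicted genes and olfactory or vomeronasal receptors), up to 5 called members a list with the largest changes, or 2 where none was called, and 11 photoreceptor, glial, Y-linked and targeted genes in any case. Other genes of a list are named to account for its count. The members and the 58 lists were chosen with earlier results of these data known, some lists after their values had been seen. Alternatives covered the gene summary, the filter, the normalization, weights, variance moderation, a replicate block, the arrays fitted, a minimum change, pigment epithelium and lens levels as covariates, and leaving out arrays.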

Additional observations from a re-analysis of the deposited data

Results flagged for a closer look

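Of 450 groups of 4 arrays (225 genes at both ages), 20 held a mouse that stood apart, its gap to the nearest other being over Dixon's critical share of the group's range, as chance gives in about 1 group in 20. Of these, 9 were at 6 months and 11 at 1 month, and 7 were at replicate 3 of the 1-month arrays.

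At 6 months, replicate 1 was lowest for Pdzph1 with 6.72 (nearest 7.14), for Nell2 with 9.58 (nearest 9.64) and for Tnfsf12 with 8.28 (nearest 8.59). Replicate 2 was highest for Fcgr3 with 6.08 (nearest 5.82). Replicate 3 was lowest for Elfn1 with 9.09 (nearest 9.43) and Esrrb with 8.58 (nearest 8.77), and highest for Psmc4 with 10.00 (nearest 9.82). Replicate 4 was highest for Dnajb4 with 10.58 (nearest 10.33) and lowest for Lamc1 with 7.96 (nearest 8.01).

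At 1 month, replicate 3 was lowest for Hs6st2 with 6.28 (nearest 6.59), Glce with 7.28 (nearest 7.5), Kcng3 with 5.72 (nearest 6.04) and Hlf with 10.70 (nearest 10.85). It was highest for Drd4 with 9.16 (nearest 8.94), Fgf2 with 8.45 (nearest 8.28) and Slc7a11 with 5.78 (nearest 5.59). Replicate 1 was lowest for Rcvrn with 9.83 (nearest 9.92) and replicate 2 for Atp2a1, a calcium pump on the skeletal muscle list, with 5.78 (nearest 5.99). Replicate 4 was lowest for Cpt1c with 8.84 (nearest 9.08) and Pfkfb2 with 10.29 (nearest 10.32). Of these 20 genes, 19 were called at 6 months against 1 month, and Atp2a1 was not.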

How the results depend on the processing

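The count of 1945 called genes at 6 months against 1 month stayed within 1.5 times under 10 alternatives, from 1633 with a replicate block to 2307 without replicate 4 of the 4-month arrays. It was 954 in the brightest probe sets (445 higher, 509 lower), 2967 with array weights (1594 lower), 157 at a change of at least 1.5-fold (69 higher, 88 lower), and 1092 with the lens mean as a covariate (488 higher, 604 lower). Leaving out each of the 8 arrays gave 1351 to 1855 genes, 590 to 873 higher and 730 to 1018 lower, and without replicate 4 of the 4-month arrays 1135 were higher. For 10 months against 6 months, 2403 became 988 in the brightest probe sets (372 higher, 616 lower), 185 at 1.5-fold (65 higher, 120 lower) and 1360 with the pigment epithelium mean (528 higher, 832 lower), with 1851 to 2306 (724 to 936 higher, 1127 to 1388 lower) without single arrays. For 6 months against 4 months the count was 1 gene, lower, without the filter. The cause was not tested. Lymphocyte, skeletal muscle, cornea and Y-linked lists had no gene left without the dimmest 50% and have no median there.

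Same-numbered arrays of 6 months and 1 month did not vary together (correlations of -0.30 to 0.11), and 2 of 4 numbers correlated best with their own, so numbers do not pair mice. With a replicate block 1633 genes were called at 6 months against 1 month (762 higher, 871 lower), 0 at 6 months against 4 months and 2109 at 10 months against 6 months (867 higher, 1242 lower).

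Of 214 named calls, 73 were lost in the brightest probe sets, 87 with the lens covariate, 151 at 1.5-fold, 24 in a fit of the 8 arrays alone and 15 to 44 without single arrays. Signs turned in the brightest probe sets for Alas2 (0.28), Cdh5 (0.020), Col4a1 (0.24), Ctsb (-0.012), Gabrd (-0.28), Gnat2 (-0.027), Kcnip2 (0.38), Mal (-0.025), Notch3 (0.13) and Opn1sw (-0.057). They turned with the lens covariate for Atp2a1 (0.075), Ckm (0.073), Gnat2 (-0.037) and Opn1sw (-0.048), without 6-month replicate 3 for Gnat2 and Opn1sw, and without 1-month replicate 2 for Opn1sw (-0.0031). Without single arrays Gnat2 ran from -0.020 to 0.048 and Opn1sw from -0.018 to 0.032. Genes near or below the lower limit of 5.61 at 1 of the ages (such as Mtnr1a, Slc7a11, Maob and Cfi) have least signal behind them. The same holds for those read by 1 probe set (among them Ifit1, Rps13, Pclaf, Chkb-cpt1b, Glul and Tpi1).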

Other observations

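The mean level of the Y-linked genes Kdm5d and Eif2s3y was 7.65 to 7.83 at 6 months, 7.93 to 8.28 at 1 month, 4.00 to 4.28 at 2 months and 4.13 to 7.72 at 10 months. The sex of the mice is not among the labels used here. From 6 to 10 months Eif2s3y had a change of -2.05 and Kdm5d of -1.60, and at 6 months against 1 month neither passed the test.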
